A study of Mus musculus with 6 samples.

Results

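Genes that drive mitosis and build the spindle were followed in lymph node RNA from double knockout mice, labelled Rag2/pfp, where pfp is perforin (symbol Prf1), a protein with which killer lymphocytes pierce target cells, and from wild-type mice. The set held 50 listed genes, taken by symbol from the platform annotation, and 42 of them had at least 1 probe among the 16593 gene symbols of the array. No signal was analysed for the other 8, which were Ccnb1, Aurkb, Cenpf, Ckap2, Racgap1, Smc4, Ncapg and Mki67. RNA of each genotype was hybridised to 3 Illumina Mouse Ref-8 v2 arrays, numbered as replicates 1 to 3. The labels give no strain, age or node position, and they leave unsaid whether each array stands for its own animal. The spread behind each p-value may therefore be technical.

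At mitotic entry the kinase Cdk1, bound to A- and B-type cyclins, works with Polo and Aurora kinases to condense chromosomes and assemble the spindle. The spindle checkpoint then holds the anaphase-promoting complex in check until every kinetochore is attached, after which cohesin is cut, sister chromatids part and the cell is divided. Transcripts of most of these genes accumulate as cells approach mitosis, so in a lymph node dividing cells, such as germinal centre B cells and activated T cells, are their likely source. Which cells they came from in these nodes was not tested. RAG2 is required for the DNA cuts that rearrange antigen receptors, a step that maturing B and T cells must complete.

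The arrays differed in more than genotype. Between 51.3% and 56.3% of probes were detected per array. The 7 tested B cell markers averaged 11.94 to 12.70 on the wild-type arrays and 6.24 to 6.73 on the knockout arrays on the normalized log2 scale, and the 7 tested T cell markers 10.96 to 11.30 and 6.03 to 7.24. The 12 tested exocrine gland genes, among them the kallikrein Klk1 and the salivary proteins Bpifa2 and Dcpp1, averaged 12.63 to 14.87 on the knockout arrays and 12.98 on wild-type replicate 2, but 5.80 and 5.70 on wild-type replicates 1 and 3. The 4 neutrophil precursor genes (Mpo, Elane, Prtn3 and Ctsg, all granule proteins) averaged 12.74 and 11.56 on wild-type replicates 1 and 3, 6.98 on wild-type replicate 2, and 6.92, 6.63 and 9.37 on knockout replicates 1, 2 and 3. All 14 gland genes and all 4 neutrophil genes were detected on at least 1 array. All 7 B cell and all 7 T cell markers were called lower in the knockout by limma, 2 of the 12 gland genes were called higher, and 0 of the 4 neutrophil genes were called. Of the targeted genes, Rag2 was not above background on any array, and the brighter of 2 Prf1 probes read 10.87 ± 0.18 (SD, n = 3) in the knockout and 11.01 ± 0.80 in wild type, so neither checked the genotype.

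Mitosis genes were lower in the knockout nodes. Of 30 members tested, 24 fell and 0 rose (limma, adjusted p under 0.05), where 17.3% of the 9973 genes tested were called lower and 10.2% higher. Their median log2 fold change, knockout minus wild type, was -1.96, or -1.93 with Kif18a at the bound given below, beside a median of 0.033 over all genes. For 25 members every knockout array lay below every wild-type array, as it did for 26.0% of genes tested. The average signal of the 30 members was 8.68, 8.05 and 8.19 on knockout replicates 1, 2 and 3, and 10.54, 9.37 and 10.32 on wild-type replicates 1, 2 and 3. Wild-type replicate 2 thus lay between the knockout arrays and the other wild-type arrays. In RNA of a whole node, fewer dividing cells and less of these RNAs per cell cannot be told apart.

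**Figure D1:**
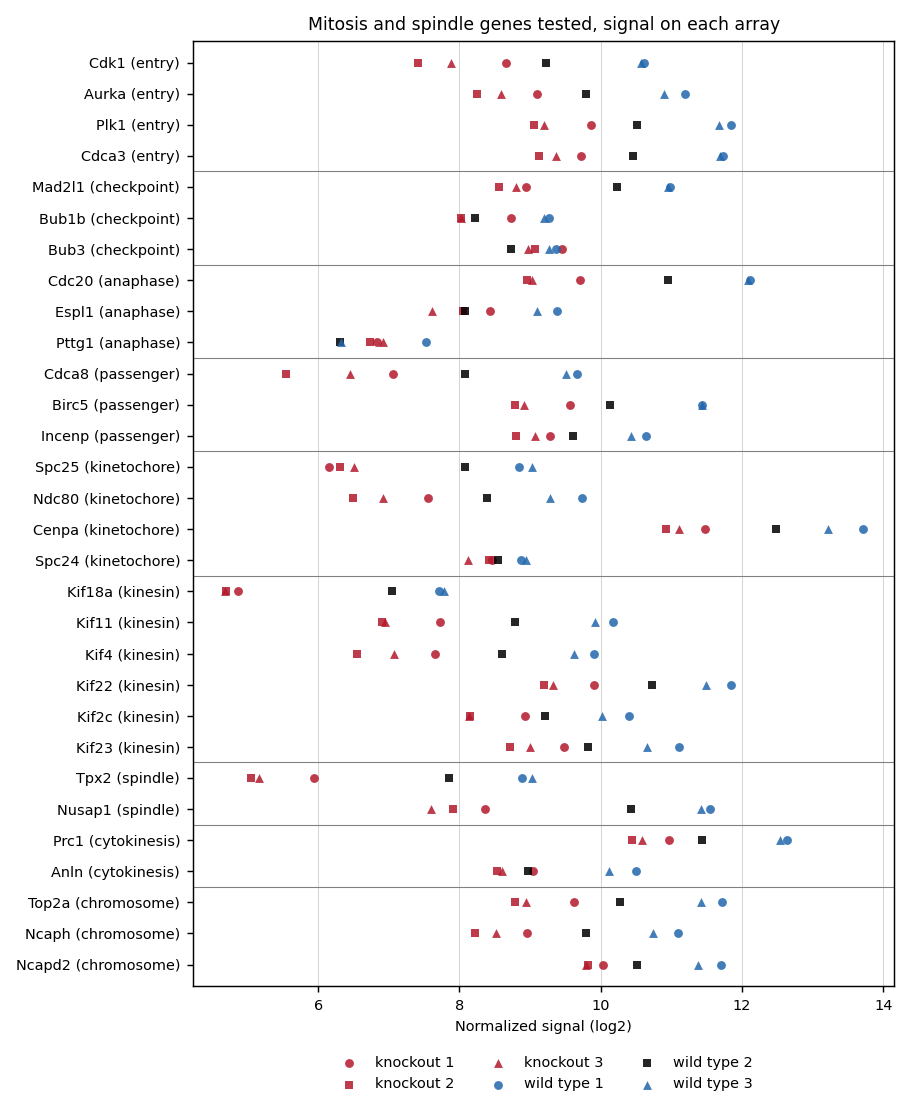
Normalized signal (log2, x axis) of the 30 tested mitosis genes on each of the 6 arrays, grouped by role. Points are single arrays (red knockout, blue wild-type replicates 1 and 3, black wild-type replicate 2), and for 25 genes all red points lie left of all others.

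How many members passed the test hung on single arrays. Leaving out knockout replicate 1, 2 or 3 gave 22, 10 or 8 members called lower, and leaving out wild-type replicate 1, 2 or 3 gave 12, 28 or 10. The share of all genes called lower moved too, to 11.3%, 9.18% and 8.24% in the first 3 of these fits and to 10.3%, 23.0% and 9.09% in the other 3. Most lost calls were lost when knockout 2, knockout 3, wild-type 1 or wild-type 3 was left out, and these are called the 4 sensitive arrays from here on. The 8 members that kept their call in each of these fits were Mad2l1, Cdc20, Cenpa, Spc25, Kif11, Kif18a, Tpx2 and Nusap1. The sign held with any 1 array left out in 28 members, all but Bub3 and Pttg1. A member passed the filter if its probe was above background on 3 of 6 arrays, which favours genes that are high in 1 group. Of the 27 members detected on all 6 arrays 21 fell, where 17.0% of such genes were called lower, and with all 42 members tested without the filter 23 fell, where 10.5% of genes were called lower.

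**Figure D2:**
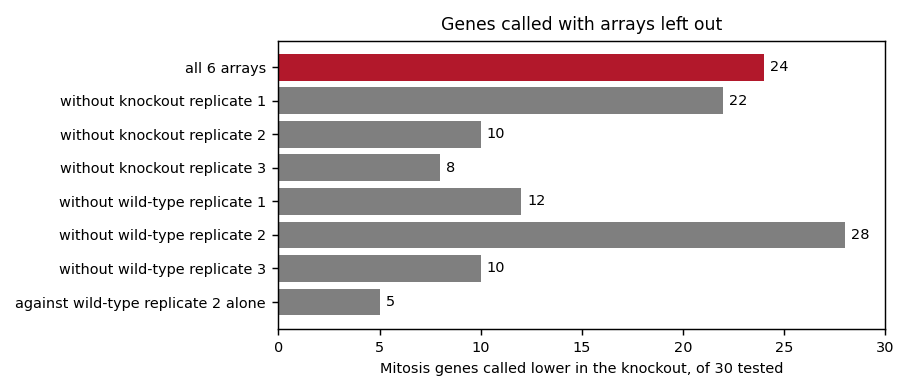
Number of mitosis genes called lower in the knockout (x axis, of 30 tested, limma adjusted p under 0.05) with all 6 arrays, with each array left out, and against wild-type replicate 2 alone. The bars run from 5 to 28, and the full set gave 24.

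Promoters of these genes often carry the cell cycle genes homology region, a short element bound by the MuvB complexes that time late cell cycle transcription, next to CCAAT boxes bound by NF-Y. In RefSeq windows of GRCm38.p6, from 250 bases before to 50 after a gene's start, TTTGAA or TTCGAA on either strand was present in 33 of the 43 listed genes with a window (76.7%), and in 21.7% of the 27025 genes with a window. In 29 of those 33 a match began between -50 and +50, a count that was not made for all genes. CCAAT was present in 76.7% of the listed genes and 41.1% of all genes, and either hexamer together with CCAAT in 69.8% and 9.65%. The Sp1 box GGGCGG was found in 76.7% and 38.2%. The E2F form TTTGGCGC was found in 2 of the 43 (4.65%) and in 0.585% of all genes. The E2F form TTTCGCGC was found in 1 of the 43 (2.33%) and in 0.374% of all genes. Either hexamer was held by 17 of the 22 members that fell and have a window, and by 4 of the 5 that were tested and not called. A match is a description of the sequence, not a mapped site.

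Stretches from -150 to +30 are shown for the 3 members with the largest falls among called members whose window holds the hexamer, and for Bub3, which was not called. Capitals mark TTTGAA or TTCGAA, as well as CCAAT, on either strand (read as TTCAAA or as ATTGG where the match is on the other strand). The hexamer of Cdca8 shares bases with a CCAAT box. Cdca8 lies at chr4:124936888-124937067 on the minus strand, Cdc20 at chr4:118437314-118437493 on the minus strand, Kif11 at chr19:37376232-37376411 on the plus strand and Bub3 at chr7:131560220-131560399 on the plus strand, the first of its 2 starts.
Cdca8: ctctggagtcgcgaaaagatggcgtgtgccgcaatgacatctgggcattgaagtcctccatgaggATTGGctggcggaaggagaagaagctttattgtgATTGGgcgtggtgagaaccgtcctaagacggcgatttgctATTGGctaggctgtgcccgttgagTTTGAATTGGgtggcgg
Cdc20: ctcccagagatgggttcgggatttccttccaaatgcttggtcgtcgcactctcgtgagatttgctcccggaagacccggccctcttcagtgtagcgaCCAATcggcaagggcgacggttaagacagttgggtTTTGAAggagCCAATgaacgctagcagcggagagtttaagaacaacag
Kif11: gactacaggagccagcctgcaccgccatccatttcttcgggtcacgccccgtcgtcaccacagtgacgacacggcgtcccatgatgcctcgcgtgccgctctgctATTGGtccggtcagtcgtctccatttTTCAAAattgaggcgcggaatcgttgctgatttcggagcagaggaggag
Bub3: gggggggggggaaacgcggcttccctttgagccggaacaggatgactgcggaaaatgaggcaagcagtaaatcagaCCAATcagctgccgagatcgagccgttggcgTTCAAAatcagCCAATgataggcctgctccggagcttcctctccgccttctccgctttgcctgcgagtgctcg
Each of the 4 stretches holds the hexamer within 50 bases of the start, with at least 1 CCAAT box upstream of it.

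Of the 8 kinases, cyclins and entry factors listed, 4 were tested, and all 4 fell. Cdk1, the catalytic partner of the mitotic cyclins, read 8.66, 7.42 and 7.88 on knockout replicates 1 to 3 and 10.61, 9.23 and 10.56 on wild-type replicates 1 to 3. Wild-type replicate 2 stood 0.57 above the highest knockout array and well below the other wild-type arrays, and the groups did not overlap. The fall was 4.43-fold (log2 fold change -2.15, SE 0.48, limma adjusted p = 0.0217). Aurka, the kinase of spindle poles, read 9.10, 8.25 and 8.59 in the knockout and 11.19, 9.79 and 10.89 in wild type, 3.94-fold lower (SE 0.41 on the log2 scale, limma adjusted p = 0.0175). Plk1, which matures centrosomes and acts up to cytokinesis, went from 11.34 ± 0.73 (SD, n = 3) to 9.37 ± 0.43, 3.92-fold lower (limma adjusted p = 0.0173). Cdca3, a trigger of mitotic entry, was 3.70-fold lower and its dimmer probe 5.12-fold lower. Each of these 4 members lost its call when any of the 4 sensitive arrays was dropped, with limma adjusted p up to 0.0751, 0.0642, 0.0662 and 0.0605 for Cdk1, Aurka, Plk1 and Cdca3. Ccna2, Ccnb2 and Nek2 were not well above background on any array, which says nothing of their direction.

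The spindle checkpoint was split. Mad2l1, which forms the inhibitor of Cdc20, read 8.95, 8.56 and 8.80 on the knockout arrays and 10.98, 10.24 and 10.96 on the wild-type arrays. Its highest knockout array was below its lowest wild-type array by 1.29, and it fell 3.87-fold (log2 fold change -1.95, SE 0.25, limma adjusted p = 0.00458). Bub1b, the BubR1 component of that inhibitor, read 8.73, 8.02 and 8.02 in the knockout and 9.27, 8.22 and 9.19 in wild type, so that wild-type replicate 2 fell inside the knockout range (log2 fold change -0.64, SE 0.35, limma adjusted p = 0.203). Without wild-type replicate 2 Bub1b was called, at a log2 fold change of -0.98 (limma adjusted p = 0.0258). Bub3, a WD-repeat protein that brings Bub1 and BubR1 to kinetochores, read 9.45, 9.07 and 8.97 against 9.36, 8.73 and 9.27, and the groups overlapped (log2 fold change 0.041, SE 0.23, limma adjusted p = 0.904). Bub1 and Ttk, the checkpoint kinases, were not well above background on any array.

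At anaphase onset Cdc20, through which the anaphase-promoting complex binds its substrates, had the largest change. Its raw signals were 888, 471 and 570 on knockout replicates 1, 2 and 3, and 4802, 2178 and 4983 on wild-type replicates 1, 2 and 3. The 3 knockout signals were all below the 3 wild-type ones, and wild-type replicate 2 was the lowest of its group. After normalization the brightest of its 4 probes gave a 5.60-fold fall (limma adjusted p = 0.00738), and the other 3 probes fell 3.21- to 5.14-fold. The probe with the 3.21-fold fall was above background on 1 of 3 knockout arrays. Espl1, the separase that cuts cohesin, read 8.43, 8.05 and 7.62 in the knockout and 9.39, 8.08 and 9.10 in wild type, where wild-type replicate 2 lay within the knockout range (log2 fold change -0.83, SE 0.39, limma adjusted p = 0.149). Without that array Espl1 was called, at -1.21 (limma adjusted p = 0.0138). Pttg1, the securin that restrains separase, read 6.84, 6.73 and 6.92 against 7.53, 6.31 and 6.33, and here wild-type replicates 2 and 3 were both below the knockout arrays (log2 fold change 0.11, SE 0.35, limma adjusted p = 0.83). Ube2c, the ubiquitin-conjugating enzyme of the complex, was above background on wild-type replicate 1 and on no other array, and was not tested.

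In the chromosomal passenger complex, which corrects faulty attachments, the 3 members tested fell. Cdca8, known as borealin, read 7.06, 5.55 and 6.44 in the knockout and 9.67, 8.08 and 9.51 in wild type, with knockout replicate 2 below background. Its fall was 6.64-fold (log2 fold change -2.73, SE 0.55, limma adjusted p = 0.0158). Birc5, known as survivin, was 3.75-fold lower by its brightest probe, at 9.57, 8.79 and 8.92 against 11.43, 10.14 and 11.43, and 4.48- and 5.29-fold lower by its other 2 probes. Incenp, the scaffold of the complex, read 9.29, 8.80 and 9.07 against 10.64, 9.60 and 10.43 and fell 2.25-fold (limma adjusted p = 0.0332). Cdca8 and Birc5 lost their calls when any of the 4 sensitive arrays was dropped, and Incenp when any array but wild-type replicate 2 was, with limma adjusted p up to 0.0572, 0.073 and 0.105.

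Of the centromere and kinetochore genes, 3 of 4 tested fell. Spc25, a subunit of the NDC80 complex that grips microtubules, read 6.15, 6.31 and 6.51 in the knockout and 8.84, 8.07 and 9.02 in wild type. All wild-type arrays were at least 1.57 above all knockout arrays, and its 2 probes gave falls of 5.0- and 5.30-fold (limma adjusted p = 0.00387 for the brighter). Ndc80, the subunit that binds the microtubule lattice, read 7.56, 6.49 and 6.91 against 9.74, 8.39 and 9.27, 4.43-fold lower (limma adjusted p = 0.0146). The Ndc80 call ended when any of the sensitive arrays but wild-type 1 was dropped, at limma adjusted p up to 0.0574. Cenpa, the histone H3 variant that marks centromeres, read 11.47, 10.92 and 11.11 against 13.70, 12.48 and 13.22 and fell 3.92-fold (limma adjusted p = 0.00993). Spc24, the partner of Spc25, gave different answers by probe. The brighter probe read 8.46, 8.42 and 8.13 against 8.87, 8.55 and 8.94 (log2 fold change -0.45, SE 0.18, limma adjusted p = 0.107). The dimmer, above background on 1 of 3 knockout arrays, fell by 1.58 (SE 0.37, limma adjusted p = 0.0242). Which of the probes follows the transcript was not tested. Cenpe and Nuf2 were not well above background on any array.

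All 6 kinesins tested fell. Kif18a, which damps chromosome oscillations at the metaphase plate, read 7.71, 7.04 and 7.78 in wild type and was not well above background on any knockout array. Its level was at least 3.27-fold lower in the knockout, measured against the lowest signal of detected probes on those arrays. Kif18a passed the filter through the wild-type arrays alone. Its limma adjusted p of 0.00206 belongs to the fitted fall and not to this bound. Kif11, the motor that pushes spindle poles apart, read 7.72, 6.90 and 6.94 against 10.17, 8.79 and 9.91 and fell 5.41-fold (limma adjusted p = 0.0102). No single array decided either call. Kif4, a chromokinesin that shapes the anaphase midzone, read 7.65, 6.55 and 7.07 against 9.90, 8.60 and 9.62 and fell 4.87-fold. Its other 2 probes were lower as well, with 1 and 0 of 3 knockout arrays above background. Kif22, a chromokinesin, Kif23, the centralspindlin motor, and Kif2c, a microtubule depolymerase, fell 3.67-, 2.77- and 2.77-fold. The calls of Kif4 and Kif22 were lost without knockout replicate 3 (limma adjusted p = 0.0503 and 0.0506). Those of Kif23 and Kif2c depended on each of the 4 sensitive arrays, at limma adjusted p up to 0.0989 and 0.103. Kif20a was not well above background on any array.

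**Figure D3:**
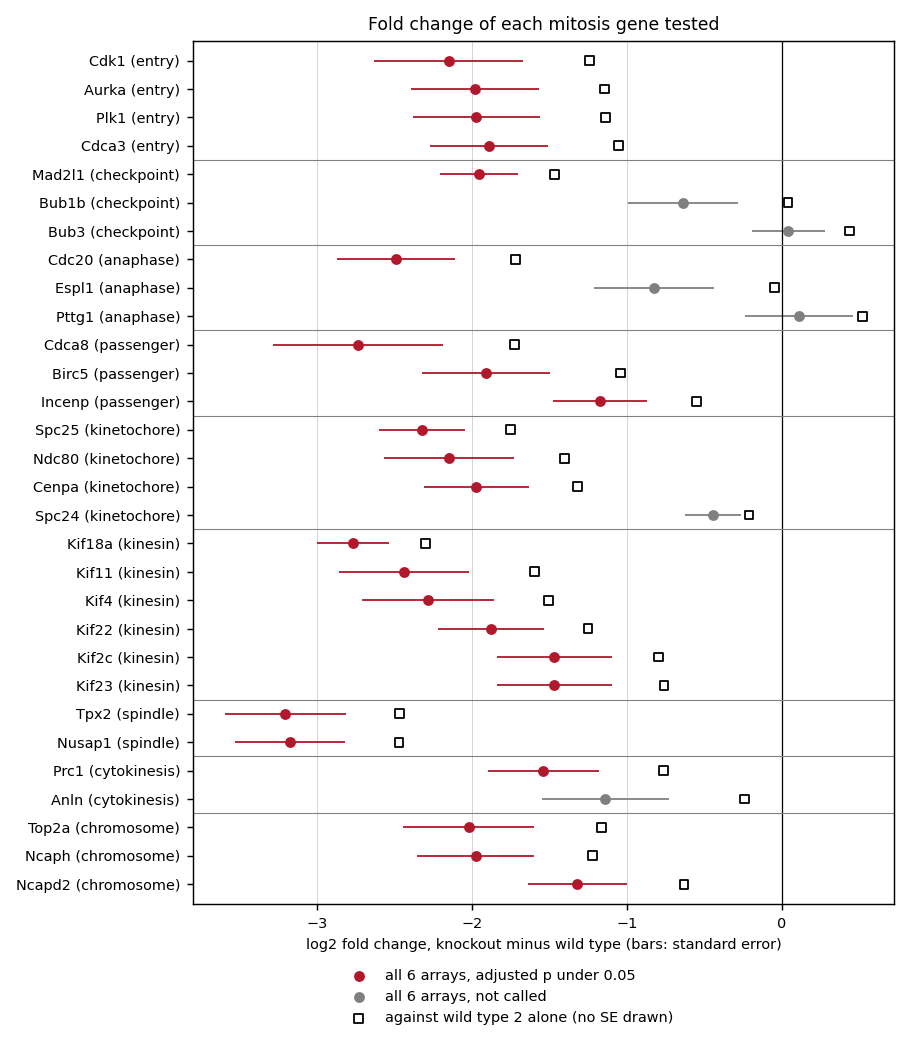
log2 fold change, knockout minus wild type, of each tested mitosis gene with its standard error (red called lower, grey not called), and the same against wild-type replicate 2 alone (open squares). Each open square lies to the right of its filled point. The knockout level behind both points of Kif18a is background, and so is that of Tpx2 on 2 of 3 arrays, so these points are fitted values and not measured falls.

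Both spindle proteins tested fell. Nusap1, which bundles microtubules around chromosomes, had raw signals of 396, 270 and 263 on the knockout arrays and 3292, 1563 and 3172 on the wild-type arrays. On the normalized scale these became 7.96 ± 0.39 (SD, n = 3) and 11.13 ± 0.61, a 9.01-fold fall (log2 fold change -3.17, SE 0.36, limma adjusted p = 0.00337). Even wild-type replicate 2 was 2.06 above the highest knockout array. Tpx2, the activator of Aurora A on spindle microtubules, read 5.94, 5.05 and 5.17 against 8.88, 7.85 and 9.03 and fell (limma adjusted p = 0.00412). Only knockout replicate 1 of the knockout arrays was above background, so the fitted 9.20-fold rests on a level that was mostly not measured. Hmmr, whose 2 probes were not well above background on any array, was not tested.

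Of the genes of cytokinesis, Prc1, which crosslinks midzone microtubules, read 10.96, 10.44 and 10.58 in the knockout and 12.64, 11.43 and 12.53 in wild type. It fell 2.91-fold (limma adjusted p = 0.0241), and dropping any of the 4 sensitive arrays ended the call, at limma adjusted p up to 0.082. Anln, the anillin scaffold of the contractile ring, read 9.04, 8.53 and 8.60 against 10.50, 8.96 and 10.12. Wild-type replicate 2 lay below knockout replicate 1, and Anln was not called (log2 fold change -1.14, SE 0.41, limma adjusted p = 0.0803). Without wild-type replicate 2 it was called, at -1.59 (limma adjusted p = 0.00346). Ect2, the exchange factor that activates RhoA at the midzone, was not well above background on any array.

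Condensin and chromosome structure genes fell in each of the 3 cases tested. Top2a, the topoisomerase that untangles sister chromatids, read 9.63, 8.78 and 8.94 against 11.71, 10.28 and 11.42 and fell 4.06-fold (limma adjusted p = 0.0179). Ncaph, the kleisin of condensin I, read 8.96, 8.22 and 8.52 against 11.10, 9.79 and 10.74 and fell 3.93-fold (limma adjusted p = 0.0136). Ncapd2, a HEAT-repeat subunit of condensin I, read 10.03, 9.82 and 9.79 against 11.71, 10.51 and 11.38 and fell 2.50-fold (limma adjusted p = 0.0266). Its other 2 probes were at -0.80 and -0.85 on the log2 scale and did not pass the test. Top2a lost its call when any of the 4 sensitive arrays was dropped and Ncaph when any of them but wild-type 1 was, at limma adjusted p up to 0.0682 and 0.0543. Ncapd2 lost its call without any array other than wild-type replicate 2 (up to 0.0895 in limma). Smc2, the ATPase shared by both condensins, was not well above background on any array.

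Across the 63 probes of the members, 42 were tested, 34 of them fell and 0 rose, where 18.5% of all probes tested were called lower. Of 7 members with over 1 tested probe, Spc24 and Ncapd2 had probes on both sides of the threshold. The 12 members not tested included 11 with no array above background. For those 12 the array gave no measure in either genotype, beyond the single detection of Ube2c.

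The order of the arrays recurred from gene to gene. Wild-type replicate 2 was the lowest wild-type array for all 30 members tested, where it was the lowest for 52.4% of all genes tested. Knockout replicate 1 was the highest knockout array for 28 members, all but Pttg1 and Spc25, against 42.2% of all genes. Wild-type replicate 2 was above every knockout array for 25 members, within their range for Bub1b, Espl1 and Anln, and below them for Bub3 and Pttg1.

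The place of wild-type replicate 2 was put on a scale from 0, the knockout mean, to 1, the mean of wild-type replicates 1 and 3, for genes where these differ by at least 1 on the log2 scale. The median over 26 members was 0.50. It was 0.48 over the 25 without Kif18a, whose knockout level was background and gives the scale no measured zero. Among those 25, Nusap1 (0.70), Spc25 (0.67) and Mad2l1 (0.67) were high, as was Tpx2 (0.69), with 1 of 3 knockout arrays above background. The lowest were Espl1 (0.040), Anln (0.15), Incenp (0.37) and Ncapd2 (0.38). By role the medians ran from 0.27 for the 2 cytokinesis genes and 0.32 for the 2 anaphase genes, through 0.45 for the 3 passenger, 0.47 for the 3 condensin and chromosome and 0.48 for the 4 entry genes, to 0.56 for the 6 kinesins with Kif18a included, 0.57 for the 3 kinetochore genes and 0.70 for the 2 spindle proteins. Of the checkpoint genes Mad2l1 alone had a position. For B cell and T cell markers the medians were 0.88 and 0.95, and for the 4 neutrophil precursor genes -0.14. Over the 1144 other genes that were called lower with such a difference the median was 0.73 (quartiles 0.58 and 0.87), and it was 0.73 over the 970 of them that were above background on at least 1 knockout array. Those genes were all called, which favours a small spread in wild type, whereas the 26 members include Espl1 and Anln, which were not called. The 2 medians therefore come from unlike selections. For 3 of the 7 B cell markers no knockout array was above background, and the median of the other 4 was 0.88. These positions share the same arrays and are given without a test.

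**Figure D4:**
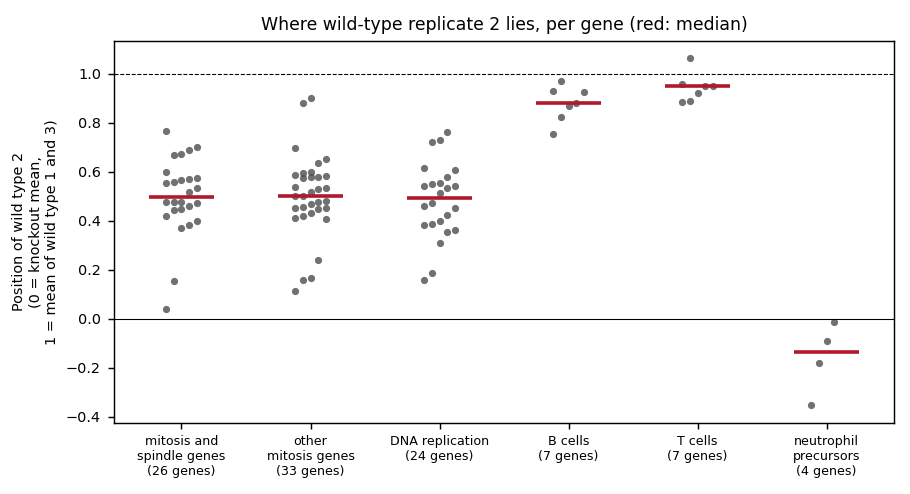
Position of wild-type replicate 2 (y axis, 0 the knockout mean and 1 the mean of wild-type replicates 1 and 3) for each gene of 6 lists, with the median in red. The mitosis genes centre on 0.50 (0.48 without Kif18a, their top point, whose knockout level is background), B and T cell markers on 0.88 and 0.95, and neutrophil precursor genes on -0.14.

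Against wild-type replicate 2 alone, with the spread taken from the knockout arrays and assumed for the lone array, 5 members were called lower. Mad2l1, Spc25 and Nusap1 were called at log2 fold changes of -1.47, -1.75 and -2.47, and Tpx2 at -2.46, with 1 of 3 knockout arrays above background. The fifth was Kif18a, at least 2.36-fold lower. In that fit 3.78% of genes were called lower. The knockout mean was the lower one for 27 members, all but Bub1b, Bub3 and Pttg1, with a median log2 fold change of -1.15 over the 30.

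Signals of some other tissue and cells rose or fell across the arrays along with the mitosis genes, and others did not. The 2 arrays with the highest mitosis signal, wild-type replicates 1 and 3, also had the highest neutrophil precursor signal and the lowest gland signal, as given above. Mpo, the myeloperoxidase of neutrophil granules, read 13.79 and 12.59 on those arrays, 7.89 on wild-type replicate 2 and 7.5, 7.16 and 10.35 on knockout replicates 1 to 3. Within the knockout, neutrophil precursor genes were highest on replicate 3, whereas mitosis genes were highest on replicate 1. Gland genes, at 12.63, 14.87 and 14.35 on knockout replicates 1 to 3, ran in the reverse order of the mitosis genes. With the mean gland signal as a covariate, 12 members and 9.83% of all genes were called lower, the median log2 fold change was -0.90 and 26 members had a negative sign. With the mean neutrophil precursor signal as a covariate, 12 members and 8.17% of all genes were called lower, at a median of -1.48, and 28 had a negative sign. Markers of germinal centre B cells and plasma cells averaged 7.55 to 7.99 in the knockout and 10.29 to 11.29 in wild type. Of these, 4 of 5 tested were called lower, where 17.3% of all genes were. For 2 of the 5 no knockout array was above background, so their knockout average is in part background. The 4 tested natural killer cell markers averaged 8.92 to 9.62 in the knockout and 8.52 to 9.45 in wild type. For the 4 erythroid markers these ranges were 8.82 to 9.45 and 8.16 to 9.10, and for the 4 skeletal muscle genes 7.34 to 7.96 and 7.02 to 7.17. In none of these lists did the knockout arrays lie below the wild-type arrays. The part of these cells and tissues in the mitosis result was not tested.

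**Figure D5:**
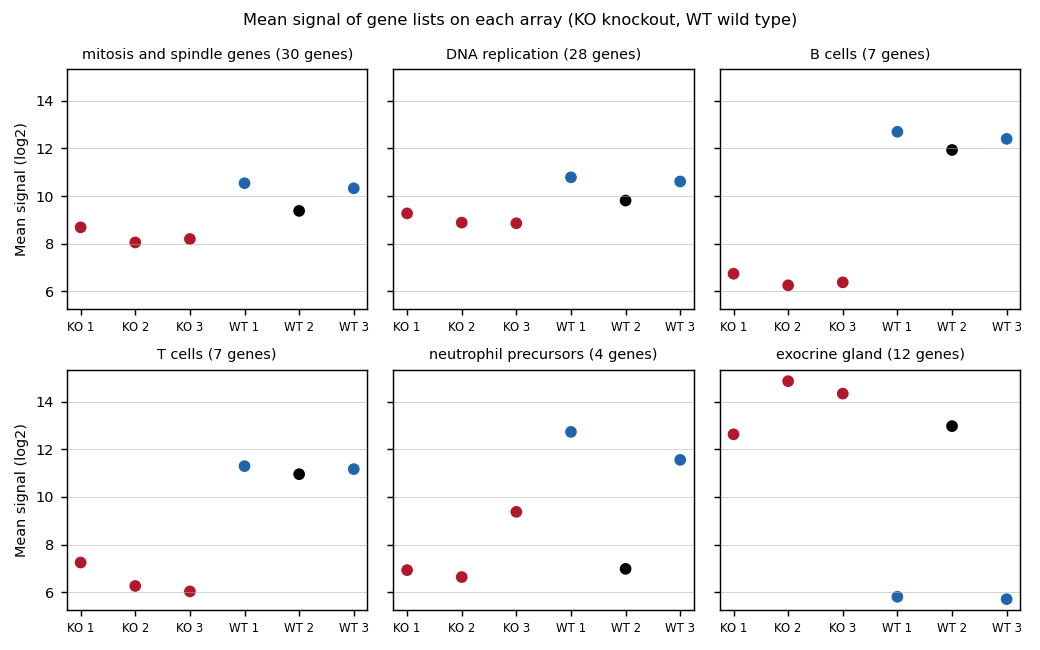
Mean normalized signal (log2, y axis) of 6 gene lists on each array (red knockout, blue wild-type replicates 1 and 3, black wild-type replicate 2). Mitosis and DNA replication genes place wild-type replicate 2 between the groups, while B and T cell markers place it with wild type, and neutrophil and gland genes place it with the knockout arrays.

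Other mitosis genes also fell. Of 64 listed, 53 had a probe, 42 were tested, 29 fell and 0 rose, with a median log2 fold change of -1.60. That median was -1.50 when the 7 genes below background on every knockout array were set to their bounds. As for the members, 17.3% of all genes were called lower and 10.2% higher. The 3 largest fitted falls were those of the kinesin Kif18b (-2.95, SE 0.54, limma adjusted p = 0.0119), the spindle protein Spag5 (-2.81, SE 0.42, limma adjusted p = 0.0071) and the guardian of centromeric cohesin Sgo1 (-2.79, SE 0.46, limma adjusted p = 0.00926). The call of Kif18b was lost without knockout replicate 3 (limma adjusted p = 0.0506). Dropping the sensitive arrays knockout 2, knockout 3, wild-type 1 and wild-type 3 in turn left 14, 13, 18 and 16 that fell, dropping knockout 1 left 26 and dropping wild-type 2 gave 34. The shares of all genes called lower in those fits were 9.18%, 8.24%, 10.3%, 9.09%, 11.3% and 23.0%. The count was 15 of 26 when only probes detected on all 6 arrays were tested, where 17.0% of such genes were called lower. The median position of wild-type replicate 2 was 0.50 over 33 of these genes.

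The core of the anaphase-promoting complex and cohesin are used by cells in more than mitosis. Of 17 tested, 4 fell and 2 rose, with a median log2 fold change of -0.27. These counts are near the 17.3% and 10.2% of all genes called lower and higher, so they are no result about the list. Smc3, a cohesin ring subunit, was at -1.69 (SE 0.29), the complex subunit Cdc16 at -1.52 (SE 0.19) and the cohesin subunit Stag1 at -1.16 (SE 0.15), with limma adjusted p of 0.0101, 0.00457 and 0.00469. For Cdc16 and Stag1 wild-type replicate 2 lay with the other wild-type arrays, at positions of 1.10 and 1.10, whereas Smc3 was at 0.57. The subunits Anapc4 and Anapc7 rose by 0.56 (SE 0.14) and 0.50 (SE 0.15) on the log2 scale, calls that ended when any array but wild-type replicate 2 was dropped (limma adjusted p up to 0.0941 and 0.162).

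DNA replication genes act before mitosis. Of 28 tested, 22 fell and 0 rose, with a median log2 fold change of -1.41, where 17.3% of all genes were called lower and 10.2% higher. Uhrf1, which guides maintenance methylation at forks, was at -2.66 (SE 0.28), the licensing factor Cdc6 at -2.60 (SE 0.42) and the clamp loader subunit Rfc4 at -2.21 (SE 0.22), with limma adjusted p of 0.00312, 0.00855 and 0.00272. Wild-type replicate 2 was the lowest wild-type array for all 28, and its median position was 0.49 over 24 of them. Dropping knockout 2, knockout 3 or wild-type 3 left 8 that fell, dropping wild-type 1 left 12, dropping knockout 1 left 16 and dropping wild-type 2 gave 26. The shares of all genes called lower in those fits were 9.18%, 8.24%, 9.09%, 10.3%, 11.3% and 23.0%.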

How the data were processed

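Signals of all 6 arrays came from the deposited non-normalized table, which holds an intensity per probe and array (GenomeStudio 2011.1, per the submitters' processing notes). Beside each intensity the deposited file gives a detection p-value. The authors' second deposited table, in log2 with a median of 7.38 in each column, was an alternative: its values differed from quantile-normalized log2 intensities by at most 5e-07.

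Intensities of all 25697 probes were background-corrected, using the detection p-values, and quantile-normalized as log2 with neqc (limma 3.58.1, R 4.3.3, offset 16, which damps changes of dim probes). Probes detected at p under 0.05 on at least 3 of 6 arrays (14378) entered lmFit and eBayes (two-sided, knockout minus wild type) with Benjamini-Hochberg adjustment across those probes. A gene was represented by its brightest tested probe. Symbols are those of the platform annotation (1719 probes carry none). The number of arrays limits the precision.

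Members and lists were chosen with earlier results of these data known. Named in full are, per role, the 3 largest called changes and up to 2 members not called, and per list the 3 largest called changes and 2 in the other direction. Alternatives changed the normalization, offset, filter, arrays, array weights, replicate block, covariates and the probe that stands for a gene. A covariate made from neutrophil precursor genes was chosen after seeing the data.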

Additional observations from a re-analysis of the deposited data

How the results depend on the processing

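Of the 30 members tested, 24 were called lower with the authors' log2 table, with quantile normalization alone, with an offset of 50, with a detection p under 0.01 and with the mean over a gene's probes. The count was 28 with array weights, where 28.8% of all genes were called lower, and 0 members were called higher in any fit run. With 1 array left out, the members called lower ranged from 8 to 28, other mitosis genes from 13 to 34, DNA replication genes from 8 to 26, core genes of the anaphase-promoting complex and cohesin from 4 to 5, called probes from 1805 to 6298 (4119 in the full set) and the members' median log2 fold change from -2.32 to -1.69. The share of all genes called lower ranged from 8.24% to 23.0% in those fits. Against wild-type replicate 2 alone, the counts in the same order were 5, 6, 3, 2 and 950, with a median of -1.15. With the gland covariate the gene counts were 12, 13, 8 and 2, with a median of -0.90. With the neutrophil precursor covariate, 12 members, 18 other mitosis genes, 9 replication genes and 1958 probes were called. Array weights gave 7968 probes, and 15 other mitosis genes fell among probes detected on all 6 arrays, where fewer were tested. Signs turned for members that were not called. Bub1b was at 0.038 against wild-type replicate 2 alone and 0.26 with the gland covariate, and Espl1 at 0.14 with the latter. Bub3 was at -0.19 with array weights, and with 1 array left out it ran from -0.16 (wild-type 2 dropped) to 0.16, with -0.10 when knockout 1 was dropped. Pttg1 ran from -0.10 (wild-type 2 dropped) to 0.51, with -0.09 when wild-type 3 was dropped. Where no construction shows it, the cause was not tested. The labels do not say whether same-numbered arrays pair. Deviations from the group means correlated at 0.49, 0.32 and -0.31 for numbers 1, 2 and 3. With 3 arrays per group these deviations constrain each other, so the correlations cannot decide it. With the replicate number as a block, 25 members and 18.4% of all genes were called lower.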
